A study of Mus musculus with 2 samples.

Results

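The Hox clusters of the mouse genome hold miRNA genes as well as the homeobox genes that pattern the body axis. Of 1973 miRNA genes counted in embryonic neural tube, 6 were described here: Mir10a, Mir10b, Mir615, Mir196b, Mir196a-2 and Mir196a-1. They were chosen by gene symbol, through the match of their Ensembl identifiers to the GENCODE M21 annotation (mm10), and all 6 passed a minimum of 10 reads in both libraries, as did 371 of all genes. The tissue was neural tube, the embryonic forerunner of brain and spinal cord, of B6NCrl embryos aged 12.5 days, with males and females pooled. Replicate 1 was a pool from 120 embryos and replicate 2 a pool from 88 embryos, which the labels give as separate biological replicates of 1 group, and RNA was selected for a size under 30, with no unit given. No second tissue, age, treatment or genotype was compared, and 2 libraries cannot give an exact sign test below p = 0.5. Differences between genes are therefore set against the spread between libraries without a test. That spread does not cover an error that favours some sequences over others in both libraries alike. Ratios between genes are thus ratios of reads, and how they relate to amounts of RNA was not tested.

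Hox genes are switched on in the order in which they lie along each cluster, from the head end of the axis toward the tail, and in the neural tube this gives hindbrain and spinal cord neurons their position. A miRNA is cut from a hairpin precursor as a short strand of the left (5p) or right (3p) arm. It represses messenger RNAs mainly through its seed, bases 2 to 8, which pairs with sites in their 3' untranslated regions. The Mir10 genes lie beside Hox4 genes and the Mir196 genes between Hox9 and Hox10 or Hox13 genes, and both families have Hox messenger RNAs among their known targets. Mir615 lies inside Hoxc5 and belongs to neither family.

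The mature strands are shown first because they set both the families and what the read counts can resolve. RefSeq sequences on GRCm38.p6 were found for 6 of 6 genes, and the seed is in capitals.
miR-10a-5p: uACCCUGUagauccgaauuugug
miR-10b-5p: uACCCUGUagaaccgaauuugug
miR-196a-5p: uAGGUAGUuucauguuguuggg
miR-196b-5p: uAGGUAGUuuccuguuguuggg
miR-615-3p: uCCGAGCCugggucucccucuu
miR-615-5p: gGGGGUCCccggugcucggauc
The Mir10 strands share the seed ACCCUGU and the Mir196 strands the seed AGGUAGU. Among 1679 mature mouse strands in the table, no strand outside each pair has that seed, and neither Mir615 strand shares its seed with another. Sharing is not rare in the table, where 27.9% of strands have a seed in common with at least 1 other strand. Counted from 1 at the 5' end, miR-10a-5p and miR-10b-5p differ only by U12A, and miR-196a-5p and miR-196b-5p only by A12C. In both families the single difference thus lies at the same position, outside the seed. The miR-615 strands are the richest in G and C of the 6 strands shown, at 63.6% for 3p and 77.3% for 5p, against 40.9% to 45.5% for the Mir10 and Mir196 5p strands.

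Mir196a-1 and Mir196a-2 are 2 genes for 1 mature strand, and their hairpins are printed to show which reads can be assigned. The capitals mark the longest stretch they share.
Mir196a-1: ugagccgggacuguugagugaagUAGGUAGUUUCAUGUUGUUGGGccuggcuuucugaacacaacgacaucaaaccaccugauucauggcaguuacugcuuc
Mir196a-2: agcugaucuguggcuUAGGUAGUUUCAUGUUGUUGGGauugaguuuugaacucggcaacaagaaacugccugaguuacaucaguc
The shared stretch is 22 bases long, which is exactly the mature miR-196a-5p and no base more. A read made only of these bases matches both places, and such multiply mapping reads were tallied in 1 separate line of each file and credited to no gene. The 3p strands of these hairpins differ at 17 of 22 positions, so a 3p read, or a 5p read with a templated base outside the stretch, can still be placed between the 2 genes. A base added to a finished strand can mislead this placing. After the stretch, Mir196a-2 goes on with an A and Mir196a-1 with a C. An added A would therefore fit Mir196a-2, whichever gene the strand came from. Mir10a and Mir10b share at most 15 bases and Mir196b at most 12 with any other hairpin in the table, so a longer read matching one of them exactly matches no other of the 1005 hairpins in the table. That table does not cover all 1973 counted genes and holds no Mir615 hairpin, and that gene was not compared.

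The places of the genes repeat between clusters, as the map of the clusters shows. Mir10a lies on chromosome 11 (96317165 to 96317274, plus strand), between Hoxb5 and Hoxb4 and 1.495 kb upstream of the Hoxb4 coding region, in no other annotated transcript. Mir10b lies on chromosome 2 (74726070 to 74726137, plus strand), 1.141 kb upstream of the Hoxd4 coding region, in introns of Hoxd4 and Hoxd3 transcripts. Mir196b lies on chromosome 6 (52230081 to 52230165, minus strand), 2.34 kb downstream of the Hoxa10 coding region, and overlaps exons of 2 noncoding Hoxa9 transcripts. Mir196a-2, on chromosome 15 (102973350 to 102973434, plus strand), lies 2.28 kb downstream of the Hoxc10 coding region, in an intron of a noncoding Hoxc5 transcript. Mir196a-1, on chromosome 11 (96265164 to 96265265, plus strand), is in no other annotated transcript, 68.9 kb from Hoxb13 and 6.28 kb upstream of Hoxb9. Mir615, on chromosome 15 (103014910 to 103015001, plus strand), is within an intron of the protein-coding Hoxc5 transcript. Each gene is on the strand of the Hox genes around it. Of the 1894 counted genes matched to M21, no other lies between the outermost Hox coding regions of the 4 clusters. Counted genes without a match had no position and were not placed. M21 has 1 more miRNA gene there, Gm44463 in HoxD, which was not counted.

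**Figure D1:**
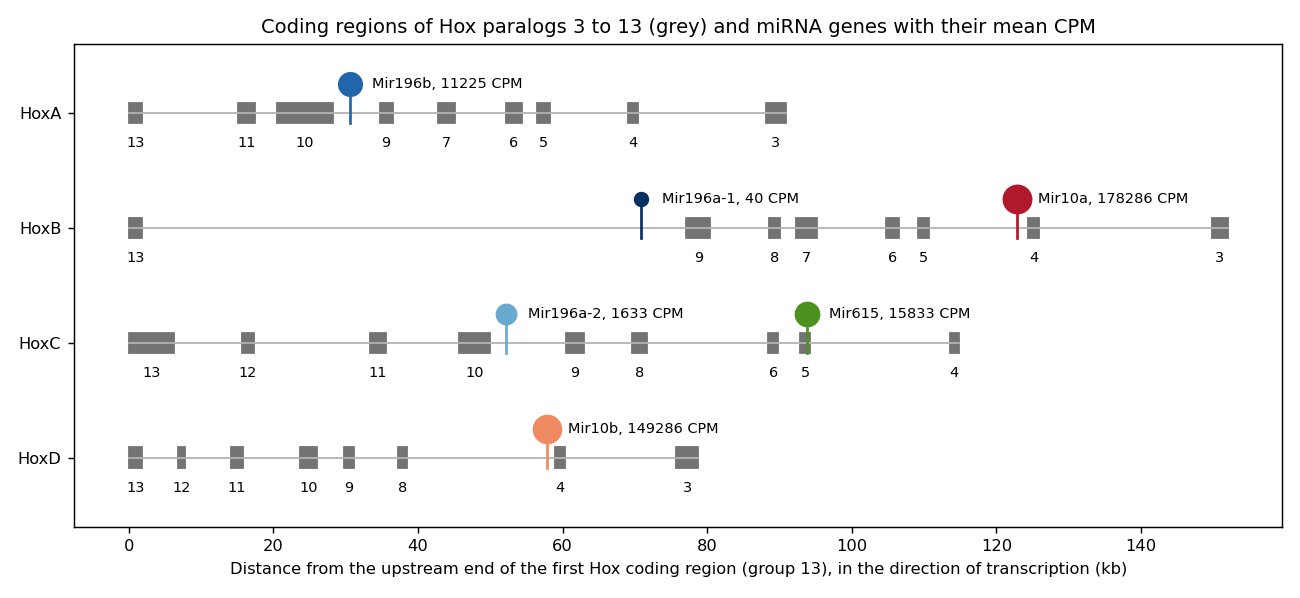
Map of the 4 Hox clusters drawn to scale, with the coding regions of Hox paralogs 3 to 13 as grey boxes labelled by paralog number, the x axis giving the distance in kb in the direction of transcription, and each miRNA gene as a stalk labelled with its mean CPM over the 2 libraries (dot size rises with log10 CPM). Mir10a and Mir10b each stand just before a Hox4 coding region and reach 178286 and 149286 CPM, while the 3 Mir196 genes stand between Hox9 and the next Hox gene upstream and reach 40.1 to 11225 CPM.

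Together the 6 genes took 36.4% of the reads assigned to miRNA genes in replicate 1 (95% Clopper-Pearson interval 36.3 to 36.4) and 34.9% in replicate 2 (34.8 to 34.9). Nearly all of this came from the Mir10 genes, with 33.4% and 32.1%. The other 4 genes made up 3.005% in replicate 1 and 2.741% in replicate 2. Of the 20 genes with the highest mean by uniquely placed reads, out of 1973 counted, 4 were Hox cluster genes: Mir10a, Mir10b, Mir615 and Mir196b. Levels are given as CPM, reads per 1000000 own-strand gene reads. These intervals cover counting error only, and may understate it, since reads copied by PCR are not independent molecules. They leave out the spread between the libraries, an SD of 1.07 percentage points for the share of the 6 genes.

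By uniquely placed reads, Mir10a ranked first among the counted miRNA genes in both libraries. Ranks here leave out the multiply mapping reads, 3448592 in replicate 1 and 2698981 in replicate 2, which genes with several copies lose. Mir10a had 880934 reads in replicate 1 and 765753 in replicate 2, or 183436 and 173136 CPM. Mir10b was second in both, with 722156 and 655461 reads, or 150374 and 148199 CPM. Even the lower library of Mir10a lay above the higher library of Mir10b, and the ratio within a library was 1.22 in replicate 1 and 1.17 in replicate 2. That order held for reads per gene. Divided by the annotated hairpin length, which is 110 bases for Mir10a and 68 for Mir10b, it turned, with 162078 CPM per 100 bases for Mir10a and 219538 for Mir10b and a ratio of 0.738 ± 0.0226 (SD, n = 2). Both mature 5p strands are 23 bases long, and the length of the annotated hairpin does not set the number of mature strands made from it. Reads of Mir10b exceeded those of Mir99a, the next gene in rank, by 1.58 ± 0.167 times.

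Mir615 came next among the Hox cluster genes and was at rank 12 in both libraries. It had 82589 reads in replicate 1 and 63993 in replicate 2, or 17197 and 14469 CPM. It was thus lower than Mir10b by a wide step, the Mir10b level being 9.49 ± 1.06 times that of Mir615. Mirlet7i, a let-7 family gene, ranked just above Mir615 and was also higher in replicate 1. Mir615 stood at 0.922 ± 0.00333 of the Mirlet7i level, and an SD of 2 libraries does not show how closely the genes vary together. Mir30e ranked just below, with Mir615 at 1.24 ± 0.222 times the Mir30e level.

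Mir196b, the HoxA member, was the leading Mir196 gene, at rank 17 in replicate 1 and rank 19 in replicate 2. It had 52482 and 50962 reads, or 10928 and 11522 CPM. Mir615 was above it in each library, by 1.57 times in replicate 1 and 1.26 times in replicate 2. The genes nearest in rank were Mir322 above (Mir196b at 0.955 ± 0.00414 of its level) and Mir20a below (1.06 ± 0.135 times), and the order of Mir196b and Mir20a changed between the libraries.

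The 2 genes of miR-196a were far apart in the reads that could be placed. Mir196a-2, in HoxC, had 9042 reads in replicate 1 and 6117 in replicate 2, or 1883 and 1383 CPM. Mir196a-1, in HoxB, had 198 and 172 reads, or 41.2 CPM (95% Clopper-Pearson interval 35.7 to 47.4) and 38.9 CPM (33.3 to 45.2). The placed reads of Mir196a-2 thus exceeded those of Mir196a-1 by 45.7 and 35.6 times. Some of the reads placed at Mir196a-2 could be miR-196a-5p of either gene with an added A at the 3' end, and how many is not known. Because the 22 bases of the mature 5p strand fit both genes, these values leave out every read confined to them, and the amount of miR-196a-5p was not measured. The same limit holds for the excess of Mir196b over Mir196a-2, which was 5.80 times in replicate 1 and 8.33 times in replicate 2. The reads mapping to several places were 27.0% of the whole file in replicate 1 and 28.6% in replicate 2, and how many of them came from miR-196a is not known.

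In rank, Mir196a-2 stood at 69 by mean CPM, between Mir98 and Mir301, and Mir196a-1 at 248, between Mir218-1 and Mir326. None of these 4 neighbours differed from the Mir196a gene beside it beyond the spread between libraries. Within HoxC, Mir615 exceeded Mir196a-2 by 9.80 ± 0.939 times. Within HoxB, Mir10a exceeded Mir196a-1 by 4449 times in replicate 1 and 4452 times in replicate 2, a nearness that the small counts of Mir196a-1 do not resolve. Summed over clusters, HoxB held 178326 ± 7285 CPM, HoxD 149286 ± 1538, HoxC 17466 ± 2283 and HoxA 11225 ± 420.1 CPM (SD, n = 2), HoxB and HoxD being the clusters with a Mir10 gene. The Mir10 sum was 26.0 times the Mir196 sum in replicate 1 and 24.8 times in replicate 2 (25.4 ± 0.812), again without the reads that fit both miR-196a genes.

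**Figure D2:**
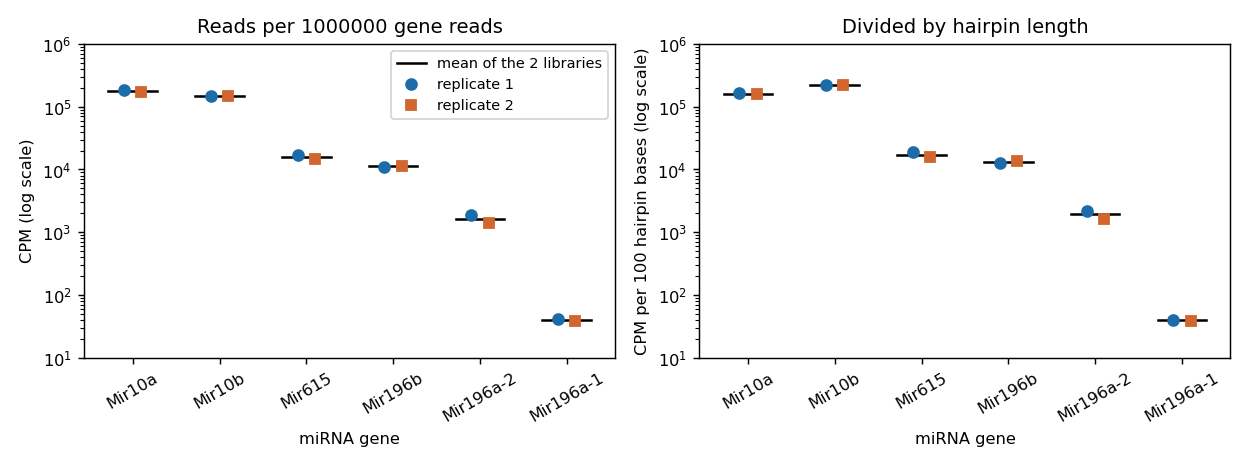
Levels of the 6 genes in replicate 1 (circles) and replicate 2 (squares) with the mean of the 2 libraries (line), on log axes, as CPM on the left and as CPM per 100 bases of annotated hairpin on the right. The genes step down from 178286 to 40.1 CPM on the left, and on the right Mir10b (219538) stands above Mir10a (162078).

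**Figure D3:**
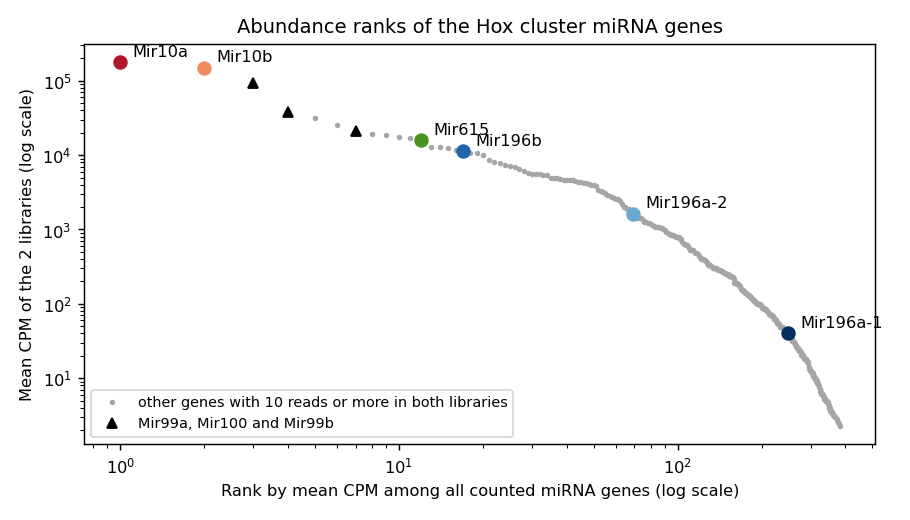
Mean CPM against rank for the 371 genes with at least 10 reads in both libraries, both axes on log scales, with the Hox cluster genes as coloured dots and Mir99a, Mir100 and Mir99b as triangles. Mir10a and Mir10b take ranks 1 and 2, Mir615 and Mir196b ranks 12 and 17, and Mir196a-2 and Mir196a-1 ranks 69 and 248.

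The counts deposited for each strand were compared next. The column with the higher total over all genes had been taken as the genes' own strand, as the columns are not named, and what follows describes single genes on that choice. On the opposite strand, Mir10a had 3 reads in replicate 1 and 0 in replicate 2, and the other 5 genes had 0 in both. Across all genes, opposite-strand reads made up 1.72% of gene reads in replicate 1 and 1.48% in replicate 2. For Mir10a the share over both libraries was 0.000182% (95% Clopper-Pearson upper bound 0.000532%).

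Related genes set beside the Mir10 pair were Mir99a, Mir99b and Mir100, which lie outside the Hox clusters and whose seed is ACCCGUA. No search of all mature strands for closer ones was run. The longest stretch shared with a Mir10 strand is in capitals, given against miR-10a-5p for miR-100 and miR-99a and against miR-10b-5p for miR-99b.
miR-100-5p: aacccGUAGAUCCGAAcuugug
miR-99a-5p: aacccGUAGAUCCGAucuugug
miR-99b-5p: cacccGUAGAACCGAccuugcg
miR-10a-5p has 11 bases in a row in common with miR-100-5p and 10 with miR-99a-5p, but 5 with miR-99b-5p. For miR-10b-5p this is the other way round, with 5, 5 and 10 bases. The base that separates the Mir10 strands thus also separates the strands of this second group. The 3 genes held 14.5% of gene reads in replicate 1 and 16.3% in replicate 2, against 33.4% and 32.1% for the Mir10 pair, which is 2.13 ± 0.231 times as many for Mir10. Mir99a had 88550 and 101334 CPM, Mir100 35182 and 40415, and Mir99b 21576 and 21262 CPM. The Mir125 genes held 0.679% and 0.506%. With them, the 6 Hox cluster genes had 2.39 and 2.07 times the reads of the Mir99, Mir100 and Mir125 genes (2.23 ± 0.224). The ratio holds for placed reads only and leaves out reads that fit several genes, such as those fitting both Mir125b-1 and Mir125b-2. By placed reads, Mir125b-1 had a mean of 901.5 CPM and Mir125b-2 a mean of 782.0 CPM.

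The Mir196 seed overlaps that of let-7, a family that grows more abundant as embryonic cells mature. The seed AGGUAGU of miR-196a-5p stands at bases 3 to 9 of let-7g-5p, 1 base further in, as the capitals show.
miR-196a-5p: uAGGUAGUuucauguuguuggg
let-7g-5p: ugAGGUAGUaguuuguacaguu
The 10 let-7 genes that were counted, of 12 listed, held 4.32% of gene reads in replicate 1 and 3.88% in replicate 2. Mirlet7g (17546 ± 223.5 CPM) and Mirlet7i (17168 ± 2154 CPM) led them (SD, n = 2). The 3 Mir196 genes together had 0.315 ± 0.0254 times the let-7 reads, and each of Mirlet7g and Mirlet7i exceeded their sum of 12898 ± 65.1 CPM in both libraries. Several let-7 genes also share mature strands, so both sums leave out reads that fit more than 1 gene.

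A site for Mir196 lies in the Hox clusters themselves. Among 141767 M21 transcripts, only Hoxb8-201 holds a window that pairs with the whole of miR-196a-5p with at most 1 position that is not a Watson-Crick pair, and no transcript holds one for miR-196b-5p, miR-10a-5p or miR-10b-5p. The window is in the 3' UTR of Hoxb8, at chr11:96284888-96284909 on the plus strand, and the capital marks a G that faces U at base 5 of miR-196a-5p, a wobble pair.
Hoxb8 site: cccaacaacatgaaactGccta
Cleavage of Hoxb8 messenger RNA at such a site is the textbook case of near-perfect pairing by an animal miRNA. Messenger RNA was not measured in these libraries. The match is only a description of the sequence.

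Markers of other cells were present in the same libraries, as the plot of shares shows. In bulk tissue, fewer cells of a type and less RNA per cell cannot be told apart, and Hox genes are also active outside the neural tube, in mesoderm of the trunk and limbs. The list of paraxial and limb mesoderm, mesenchyme and cartilage genes, 6 of 7 with at least 10 reads in both libraries, held 1.67% of gene reads in replicate 1 and 1.55% in replicate 2, led by Mir214 (5533 ± 986.9 CPM). The endothelial gene Mir126a held 2.03% and 1.83%, and the sensory neuron list (3 of 3) 1.91% and 2.61%, led by Mir183. The skeletal muscle list (2 of 5 counted) held 0.0825% and 0.0479%, led by Mir206, with Mir133a-1 and Mir133a-2 at 0 placed reads; these genes share a mature strand, so the 0 does not show that it was absent. The epithelial list (7 of 7, led by Mir203) held 0.219% and 0.225%, the liver and gut list (4 of 5, led by Mir375) 0.0503% and 0.0343%, and the erythroid and leukocyte list (5 of 5 counted, led by Mir223) 0.0440% and 0.0391%. The neural list, 9 of 11 counted, held 0.433% and 0.481%, led by Mir137 (2809 ± 379.0 CPM). Of its defining multicopy genes, Mir124a-1 and Mir124a-3 had under 10 reads in each library, Mir124a-2 had 52 and 38, Mir9-2 had 26 and 11, and Mir9-3 had 1288 and 1318 reads. These too lack the reads that fit several copies. What part of the reads of the Hox cluster genes came from which cells was not tested.

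**Figure D4:**
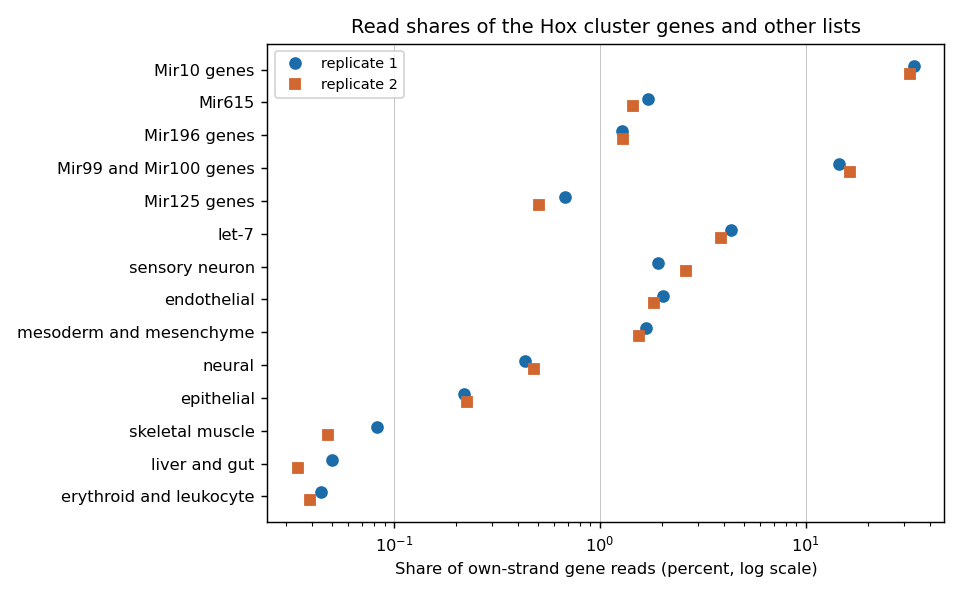
Share of own-strand gene reads in replicate 1 (circles) and replicate 2 (squares), in percent on a log axis, for the Hox cluster genes split by family, the related gene lists and the marker lists of other cell types. The Mir10 genes stand at 33.4% and 32.1%, above every other list drawn, and Mir615 and the Mir196 genes lie between 1.29% and 1.72%.

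The gap between the libraries ranged over the 6 genes from near 0 for Mir10b to its widest for Mir196a-2. After TMM scaling, which removes a common shift between libraries, the log2 ratio of replicate 1 to replicate 2 was 0.04 for Mir10a, -0.02 for Mir10b, 0.21 for Mir615, -0.12 for Mir196b, 0.41 for Mir196a-2 and 0.05 for Mir196a-1. None of the 6 was 1.5-fold apart, while 42 of the 371 genes were, which is 11.3% (8.63% higher in replicate 1 and 2.7% in replicate 2), so that a count of 0 among 6 genes says nothing particular about them. The median size of the log2 ratio over all 371 genes was 0.24. Mir196a-2 lay beyond that median, at 1.33-fold and with an SD of 21.6% of its mean CPM, and 82 of the 371 genes had a wider gap. Mir615, Mir196a-2 and, by smaller gaps, Mir10a and Mir196a-1 were higher in replicate 1 in all 3 scalings tried. Mir196b was higher in replicate 2 in all 3. The sign for Mir10b depended on the scaling, with 0.02 by library totals and -0.02 by DESeq2 size factors. Against library totals, the scalings only shift every log2 ratio alike, by -0.039 for TMM and -0.043 for DESeq2, so their agreement adds little. For Mir196a-1 the counting intervals of the 2 libraries overlap, and the sign is not resolved. As libraries of 1 group, these gaps are spread between replicates and not differences between conditions.

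**Figure D5:**
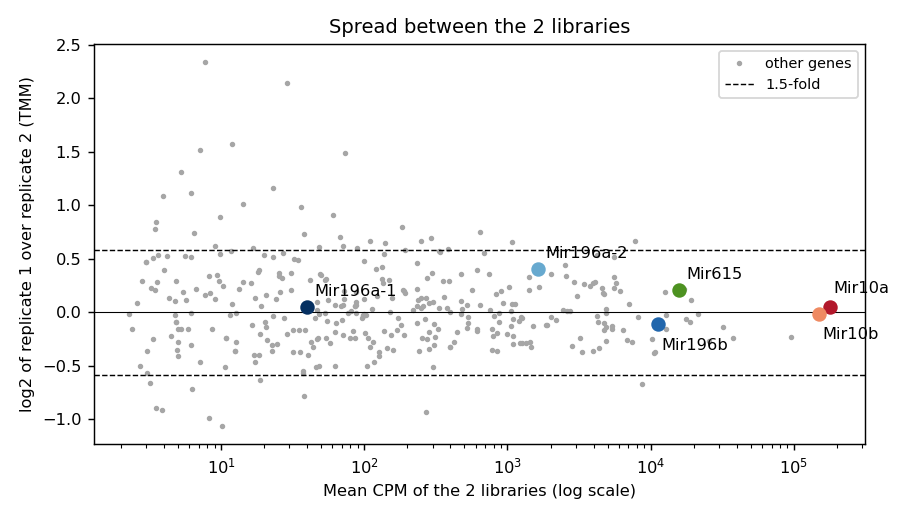
Log2 ratio of replicate 1 to replicate 2 after TMM scaling against mean CPM (log axis) for 371 genes, with the Hox cluster genes coloured and dashed lines at 1.5-fold. All 6 coloured points lie between the dashed lines, from -0.12 for Mir196b to 0.41 for Mir196a-2.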

How the data were processed

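Raw read counts for every miRNA gene, as deposited, came in 3 columns (both strands, then each strand); per the file headers they rest on mm10, annotation M4 and 1 alignment per library. How reads were trimmed, aligned and counted is not given in the sources used here. Because the columns carry no names and no counter is stated, the one with more reads was treated as own-strand. It summed to 4802411 reads in replicate 1 and 4422853 in replicate 2, 37.7% and 46.9% of all reads in the files, so that 0 reads allow at most 0.625 and 0.678 CPM (3 counts, counting error only). Unmapped reads (27.3% and 20.0%), multiply mapping reads and reads outside features (8.04% and 4.45%) were left out of totals. Symbols came from GENCODE M21 (1894 of 1973 identifiers matched) and sequences from RefSeq. Errors are the SD of 2 libraries; a ratio was read as above or below 1 only where both libraries lay on that side and the mean was over 1 SD away. TMM scaling used edgeR 4.0.16 and an alternative DESeq2 1.42.0 (R 4.3.3); no model was tested, since there is 1 group. The common biological coefficient of variation, the square root of the edgeR common dispersion and so without counting error, was 16.3%. Python 3.11.15, numpy 2.4.6, pandas 2.3.3, scipy 1.17.1 and matplotlib 3.10.9 were used, and the fold step was tested on simulated data. Named genes were the 6 members, their neighbours in rank, 2 related lists with their leading genes, and the leading gene of each marker list. Any further gene was picked with its values in view. Members and lists were chosen with earlier results of these data known. List entries Mir9-1, Mir1a-2, Mir142, Mirlet7e and Mirlet7f-1 matched no counted symbol and were not analysed here.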

Additional observations from a re-analysis of the deposited data

How the results depend on the processing

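Once multiply mapping reads entered the denominator, the share of the 6 genes was 21.4%, and the levels were 107144 CPM for Mir10a, 89779 for Mir10b, 9498 for Mir615, 6758 for Mir196b, 977.4 for Mir196a-2 and 24.1 for Mir196a-1, with ratios between genes untouched by construction. Without Mir10a the share was 21.7%. Both-strand counts moved only the level of Mir10b by more than its SD, to 146895 CPM. Division by hairpin length turned the ratio of Mir10a to Mir10b to 0.738 and moved that of the 6 genes to the Mir99, Mir100 and Mir125 genes to 1.79. Genes 1.5-fold apart numbered 171 of 606 (28.2%) at a minimum of 1 read per library and 24 of 269 (8.92%) at a minimum of 100, against 42 of 371, and 11 of 371 were 2-fold apart; none was one of the 6 Hox cluster genes. Of 43 alternatives other than leaving out a library, 29 kept the value within its SD or the count within 1.5-fold. Leaving out a library gives the value of the other, as printed in the report. No paired analysis was possible because there is 1 group. The number of Mir196a-1 reads, under 200 in each library, limits its precision.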
